A study of Mus musculus with 6 samples.

Results

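Plasmablasts and germinal centre B cells are the late stages of a B cell response, and 8 genes known for them were followed in mouse splenic CD4+ T cell preparations treated with a MAPK13 inhibitor or with its solvent. The members were taken by symbol and are *Jchain*, *Mzb1*, *Sdc1*, *Tnfrsf17*, *Tnfrsf13b*, *Pou2af1*, *Fcrl5* and *S1pr2*. All 8 are among the 35602 genes of a count table and among the 34714 genes of a pair of single-library tables. Per the labels, CD4+ T cells came from mouse spleen, and those of replicates 2 and 3 from wild-type animals. Both groups were stimulated through CD3 and CD28, for 72 h by the study's design text. MAPK13-inhibitors-treated cells received MAPK13-IN-1, a small molecule that blocks the kinase encoded by *Mapk13*, and DMSO-treated cells received the solvent DMSO. For replicates 2 and 3 the labels give a dose of 17.1 µM added after day 1, whereas the design text places the inhibitor in the culture during stimulation. RNA was sequenced in 3 libraries per group. Replicates 2 and 3 were made with poly-T beads and hold counts, which total 26874805 (replicate 2) and 28487403 (replicate 3) for DMSO and 33854760 and 32617702 for the inhibitor. A further library of each group carries no replicate number in its label and was numbered replicate 1 here. This pair came from a stranded library kit and holds values taken as FPKM, that is, fragments per length of gene and size of library. That unit was inferred, and the depth of the pair is unknown. This pair entered no test.

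A plasmablast is a dividing B cell that has begun to secrete antibody, and a germinal centre B cell is one that mutates and selects its antibody genes inside a follicle with the help of CD4+ T cells. The change from the second state toward secretion involves a new set of transcription factors, an expanded endoplasmic reticulum and a switch among receptors for the survival factors BAFF and APRIL. Several of these genes are not restricted to B cells, and activated T cells or other cells of the spleen can also transcribe some of them.

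The label of CD4+ T cells was first set against marker genes. Levels of different genes are compared here per length, as CPM (each count as its share of a TMM-scaled library) per kb of annotated exon in the count table and as FPKM in the replicate 1 pair. *Cd4*, *Cd3e* and *Cd79a* were chosen for this after their values were seen. *Cd79a*, a chain of the B cell receptor complex, stood at 124 and 116 CPM per kb in the DMSO libraries and at 138 and 135 in the MAPK13-inhibitors libraries. *Cd3e*, a chain of the T cell receptor complex, stood at 25.8 and 25.3 CPM per kb and at 8.56 and 11.2 CPM per kb, respectively. *Cd79a* was thus above *Cd3e* in each of the 4 libraries of the count table, by 4.82 and 4.61 times with DMSO and by 16.2 and 12.0 times with the inhibitor. It was also above the T cell co-receptor *Cd4*, which stood at 68.1 and 68.4 CPM per kb with DMSO and at 66.2 and 70.2 CPM per kb with the inhibitor. In the replicate 1 pair the order was the other way, with *Cd79a* at 9.40 and 5.44 FPKM against *Cd3e* at 74.6 and 70.2 FPKM and *Cd4* at 118 and 146 FPKM. These genes do not stand for all markers. *Lck*, a kinase of T cell receptor signalling, was at 118 and 124 CPM per kb with DMSO, near *Cd79a*, and at 50.4 and 54.8 CPM per kb with the inhibitor. Summed, 16 B cell markers came to 483 and 476 CPM per kb with DMSO and 8 of 11 CD4 T cell markers to 498 and 505 CPM per kb. The other 3, the T cell receptor constant genes *Trac*, *Trbc1* and *Trbc2*, were not found by symbol, so the T cell sums leave them out. The medians per gene were 14.1 and 13.7 for B cells and 61.4 and 60.8 for T cells. With the inhibitor the B cell markers summed to 527 and 527 CPM per kb and these 8 T cell markers to 258 and 291 CPM per kb, with medians of 13.0 and 12.4 against 32.6 and 38.9. By the median, T cell markers were thus above B cell markers in each of the 4 libraries. In the replicate 1 pair the sums were 61.9 and 44.8 FPKM for B cells against 1265 and 1127 FPKM for the same 8 of T cells. Both sets of transcripts were therefore present in the libraries on which every test below rests, with B cell markers lower against T cell markers in the replicate 1 pair. The study's methods name a kit for the isolation of mouse CD4 T cells, a step meant to remove other cells such as B cells. The replicate 1 pair also differs in library kit, unit and processing.

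**Figure D1:**
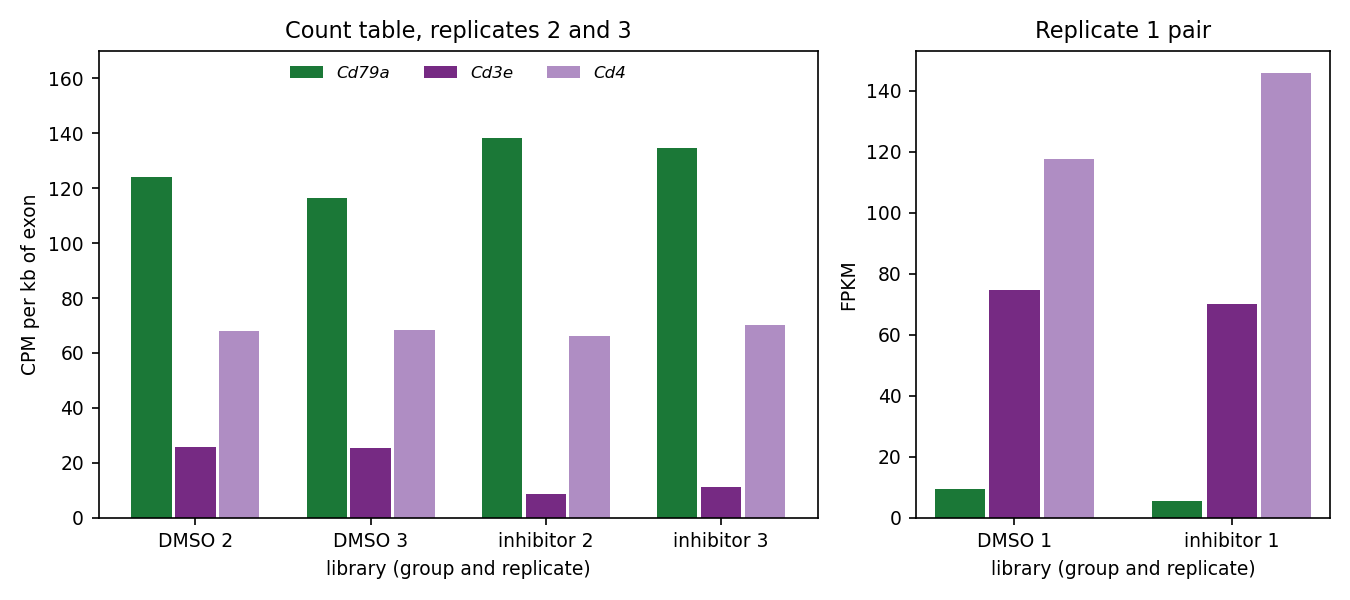
Levels of 1 B cell gene (*Cd79a*) and 2 T cell genes (*Cd3e*, *Cd4*) in each library, as CPM per kb of exon in the count table (left) and as FPKM in the replicate 1 pair (right). Each bar is 1 library, and the 2 axes are not on a common scale. *Cd79a* exceeded *Cd3e* in the 4 libraries of the count table and was below it in both libraries of the replicate 1 pair.

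Of the 8 members, 7 passed the filter on low counts and were tested. All 7 were called at an adjusted p-value under 0.05 by the quasi-likelihood test of edgeR, adjusted by Benjamini-Hochberg over all 16269 genes tested, where 63.8% of genes were called. Among the members 4 were higher with the inhibitor, against 31.5% of all genes, and 3 were lower, against 32.3%. The libraries of the groups did not overlap for these 7 genes, as for 83% of all genes tested. A call in either direction was thus common in this comparison. Fewer cells of a type and less RNA per cell cannot be told apart in these bulk libraries. P-values measure the spread between these libraries alone, which may be technical, since no label states that they came from separate cultures.

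*Jchain* and *Mzb1* serve antibody assembly. *Jchain* encodes the joining chain that links IgM and IgA into polymers. Its counts were 86 and 41 with DMSO and 212 and 183 with the inhibitor, or 3.34 and 1.51 CPM against 5.97 and 5.40 CPM. Both inhibitor libraries were above both DMSO libraries, which differed from each other more than the inhibitor libraries did. The means were 2.42 ± 1.29 CPM (SD, n = 2) and 5.69 ± 0.405 CPM (SD, n = 2), and the log2 fold change was 1.24 (SE 0.287, adjusted p = 0.00333 by edgeR with Benjamini-Hochberg adjustment). Its size rested on the DMSO libraries, at 0.76 without DMSO replicate 3 and 1.90 without DMSO replicate 2, and it was called both times. *Jchain* was also higher with the inhibitor in the replicate 1 pair, where it went from 0.302 to 1.82 FPKM.

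*Mzb1* encodes a chaperone of the endoplasmic reticulum that aids the assembly and secretion of antibody. It had 3791 and 3632 counts with DMSO and 6720 and 6673 counts with the inhibitor, or 147 and 134 CPM against 189 and 197 CPM. The groups were apart by several times their spread, at 140 ± 9.52 CPM and 193 ± 5.37 CPM (SD, n = 2 each). The log2 fold change was 0.46 (SE 0.0638, adjusted p = 0.000113 by edgeR with Benjamini-Hochberg adjustment). The order was reversed in the replicate 1 pair, with 21.8 FPKM in DMSO-treated and 10.0 FPKM in MAPK13-inhibitors-treated cells. Of the 1215 exonic bases annotated for *Mzb1*, 695 are shared with a second gene model on the same strand, and how the counting divided such reads is not given in the sources used here, so its level carries that uncertainty.

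*Sdc1* encodes syndecan-1 (CD138), the heparan sulfate proteoglycan by which plasma cells are sorted. It had 134 and 139 counts with DMSO and 355 and 510 counts with the inhibitor, or 5.20 and 5.11 CPM against 10.0 and 15.1 CPM. The DMSO libraries were nearly equal, and both inhibitor libraries were above them though unlike each other. The means were 5.15 ± 0.0604 CPM and 12.5 ± 3.57 CPM (SD, n = 2 each), with a log2 fold change of 1.28 (SE 0.194, adjusted p = 0.000214 by edgeR with Benjamini-Hochberg adjustment). *Sdc1* went the same way in the replicate 1 pair, from 0.457 to 4.46 FPKM. Among the 7 members tested the fitted changes of *Sdc1* and *Jchain* were the largest, 2.43-fold and 2.36-fold. Without DMSO replicate 3 the log2 fold change of *Jchain* was 0.76, smaller in size than that of *Pou2af1* at -0.88.

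**Figure D2:**
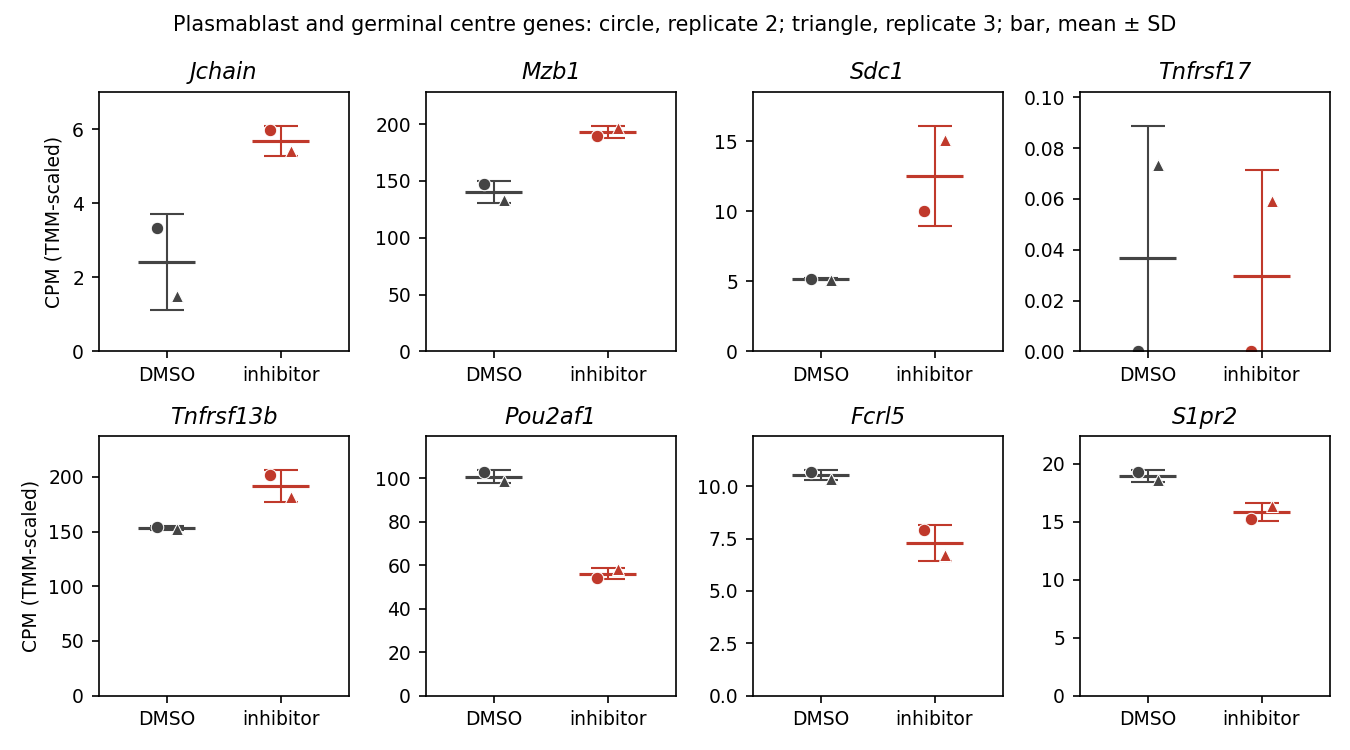
CPM (TMM-scaled) of the 8 members in the 4 libraries of the count table, by group. Circles are replicate 2, triangles replicate 3, and horizontal lines with bars are the mean ± SD (n = 2), on a separate axis from 0 for each gene. *Jchain*, *Mzb1*, *Sdc1* and *Tnfrsf13b* were higher and *Pou2af1*, *Fcrl5* and *S1pr2* lower in both inhibitor libraries, and *Tnfrsf17* had at most 2 counts in any library.

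*Tnfrsf17* and *Tnfrsf13b* encode BCMA and TACI, receptors for BAFF and APRIL, of which BCMA is the receptor of long-lived plasma cells and TACI that of activated and marginal zone B cells. *Tnfrsf17* was counted 0 and 2 times with DMSO and likewise 0 and 2 times with the inhibitor, and was listed at 0 in both tables of the replicate 1 pair. All 4 counts are within the 3 counts that a count of 0 allows, worth 0.0845 to 0.116 CPM in these libraries (counting error only). A difference was not detectable at this depth, and no fold change is given. *Tnfrsf13b* had 3983 and 4133 counts with DMSO and 7172 and 6159 counts with the inhibitor, or 154 and 152 CPM against 202 and 182 CPM. The lower inhibitor library was above both DMSO libraries, and the means were 153 ± 1.76 CPM and 192 ± 14.4 CPM (SD, n = 2 each). The log2 fold change was 0.33 (SE 0.0644, adjusted p = 0.00126 by edgeR with Benjamini-Hochberg adjustment). It was slightly lower with the inhibitor in the replicate 1 pair, at 25.0 against 22.1 FPKM.

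*Pou2af1* encodes OBF-1 (also Bob1), the coactivator that joins octamer-binding factors at immunoglobulin promoters and is needed for germinal centres. It had 2653 and 2684 counts with DMSO and 1928 and 1967 counts with the inhibitor, or 103 and 98.7 CPM against 54.3 and 58.1 CPM. The groups were far apart against their spread, at 101 ± 2.96 CPM and 56.2 ± 2.64 CPM (SD, n = 2 each). The log2 fold change was -0.84 (SE 0.0676, adjusted p = 2.42e-06 by edgeR with Benjamini-Hochberg adjustment), a 1.79-fold fall. Replicate 1 had the same direction, with 10.9 FPKM in DMSO-treated and 6.64 FPKM in MAPK13-inhibitors-treated cells.

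*Fcrl5* encodes a receptor of the Fc receptor-like family found on innate-like and memory B cells. It had 276 and 282 counts with DMSO and 281 and 227 counts with the inhibitor. Since the inhibitor libraries were deeper, these correspond to 10.7 and 10.4 CPM against 7.92 and 6.70 CPM, with no overlap. The log2 fold change was -0.53 (SE 0.139, adjusted p = 0.00697 by edgeR with Benjamini-Hochberg adjustment). Replicate 1 gave 0.561 and 0.342 FPKM, also lower with the inhibitor.

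*S1pr2* encodes the receptor for sphingosine 1-phosphate that holds germinal centre B cells and follicular helper T cells within the follicle. It had 498 and 506 counts with DMSO and 542 and 555 counts with the inhibitor, or 19.3 and 18.6 CPM against 15.3 and 16.4 CPM. The inhibitor libraries were the lower by a small margin, with a log2 fold change of -0.26 (SE 0.103, adjusted p = 0.0456 by edgeR with Benjamini-Hochberg adjustment). This call was near the threshold. It was lost in 9 of 11 alternative settings, over all of which the adjusted p-value of edgeR or DESeq2 ranged from 0.0111 to 0.268, so the call does not hold up. The log2 fold change was negative in all 11, from -0.32 to -0.14. *S1pr2* of the replicate 1 pair was higher with the inhibitor, at 4.21 against 7.06 FPKM.

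By length, the members fell into an abundant and a scarce set. With DMSO the means in CPM per kb were 115 for *Mzb1*, 54.0 for *Tnfrsf13b* and 39.5 for *Pou2af1*, followed at a distance by *Fcrl5* at 3.03, *S1pr2* at 2.38, *Sdc1* at 1.35 and *Jchain* at 0.962. With the inhibitor *Mzb1* at 159, *Tnfrsf13b* at 67.7 and *Pou2af1* at 22.0 CPM per kb kept their order, and the scarce set was led by *Sdc1* at 3.29 CPM per kb. Below it, *Jchain* at 2.15 to 2.37, *Fcrl5* at 1.93 to 2.28 and *S1pr2* at 1.92 to 2.05 CPM per kb overlapped between neighbours and were not separated. In the replicate 1 pair *Tnfrsf13b*, *Mzb1* and *Pou2af1* were again the 3 highest in DMSO-treated cells, at 25.0, 21.8 and 10.9 FPKM. In the inhibitor library of that pair *Tnfrsf13b* at 22.1 and *Mzb1* at 10.0 FPKM were followed by *S1pr2* at 7.06 FPKM, above *Pou2af1* at 6.64 FPKM.

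**Figure D3:**
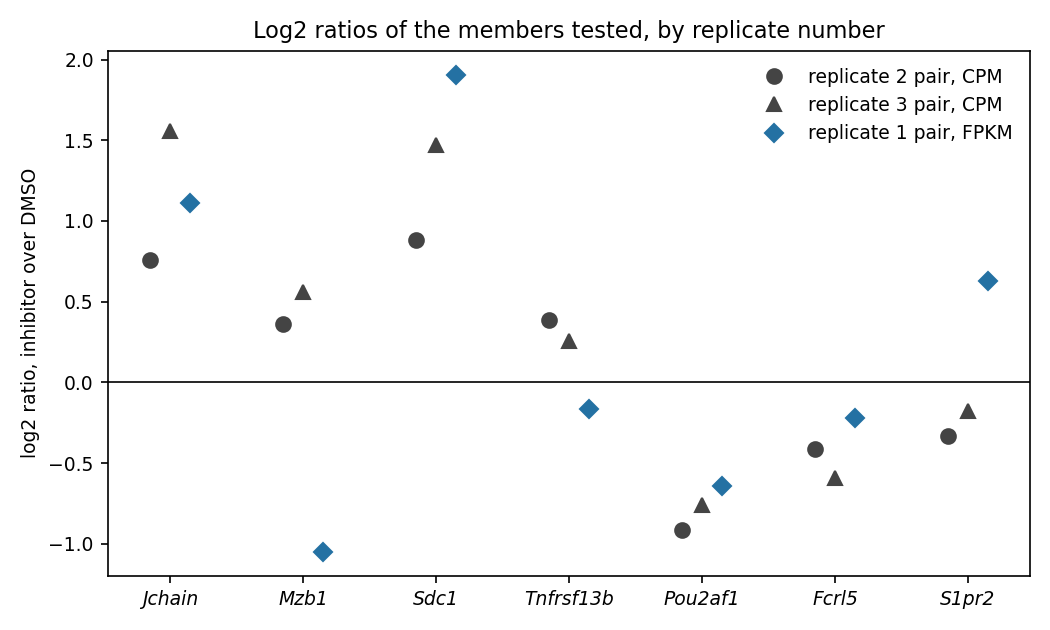
Log2 ratio of MAPK13-inhibitors-treated over DMSO-treated cells for the 7 members tested, by replicate number. Circles and triangles are replicates 2 and 3 (CPM with 0.5 added), which no label pairs beyond the number, and diamonds are the replicate 1 pair (FPKM with 1 added). The diamond lies on the other side of 0 for *Mzb1*, *Tnfrsf13b* and *S1pr2*.

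The direction in the replicate 1 pair was that of the count table for 4 of the 7 members tested, *Jchain*, *Sdc1*, *Pou2af1* and *Fcrl5*. On the scale of log2(FPKM + 1), which understates changes of low values, the ratios were 1.11, 1.91, -0.64 and -0.22, respectively. It was opposite for *Mzb1* at -1.05, *Tnfrsf13b* at -0.17 and *S1pr2* at 0.63. The replicate 1 pair holds 1 library per group and has no replicate check.

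Markers of other cells moved with the groups. Of 16 B cell markers, all were tested, 11 were higher and 3 lower with the inhibitor, with a median log2 fold change of 0.34 against 0.01 for all genes tested. Their summed level was 1302 and 1275 CPM with DMSO and 1518 and 1530 CPM with the inhibitor, none was at 0, and the highest mean CPM over the 4 libraries was that of *Pax5*, the factor of B cell identity, at 178 and 168 CPM against 263 and 271 CPM. For the replicate 1 pair, 12 of these 16 were lower with the inhibitor, and their sum went from 61.9 to 44.8 FPKM. *Mzb1* and *Tnfrsf13b* therefore had the direction of the summed B cell markers in the count table and again in the replicate 1 pair, where it was the opposite one. *Jchain* and *Sdc1* had it in the count table only, *Pou2af1* and *Fcrl5* in the replicate 1 pair only, and *S1pr2* in neither. The part of B cells in the members' values was not tested.

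Relative to the summed B cell markers of the same library, *Mzb1* was at 11.3% and 10.5% with DMSO and at 12.5% and 12.9% with the inhibitor. *Tnfrsf13b* was at 11.9% and 11.9% with DMSO and at 13.3% and 11.9% with the inhibitor, so that its groups overlapped on this scale. *Sdc1* was at 0.399% and 0.401% against 0.659% and 0.984%, and *Jchain* at 0.256% and 0.118% against 0.394% and 0.353%, both still without overlap. *Pou2af1* was at 7.90% and 7.74% against 3.58% and 3.79%, a wider gap than in CPM. *S1pr2* was at 1.48% and 1.46% against 1.01% and 1.07%, and *Fcrl5* at 0.822% and 0.813% against 0.522% and 0.438%. The percentages above are of CPM, which is not scaled by length, and those of the replicate 1 pair are of FPKM, which is. Their levels are therefore not comparable. Relative to the same list in the replicate 1 pair, *Mzb1* went the other way, from 35.2% to 22.3%. There *S1pr2* rose from 6.80% to 15.7% and *Tnfrsf13b* from 40.3% to 49.3%. By contrast *Pou2af1* fell from 17.6% to 14.8% and *Fcrl5* from 0.907% to 0.763%. *Sdc1* went from 0.739% to 9.95% and *Jchain* from 0.488% to 4.05%. These ratios are descriptions of each library and were not tested.

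Within the B cell list the genes did not all move one way. *Blk*, a kinase of B cell receptor signalling, rose from 43.4 and 43.2 CPM to 92.0 and 89.2 CPM, a log2 fold change of 1.07. *Vpreb3*, a protein of the pre-B cell receptor route, fell from 21.9 and 23.7 CPM to 5.92 and 6.79 CPM, a log2 fold change of -1.84.

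Plasmacytoid dendritic cells also transcribe several genes of plasma cells. Of their 8 markers 6 were tested, 3 were higher and 2 lower, with a median log2 fold change of 0.57, and 1 was lower with library totals. The sum was 671 and 635 CPM with DMSO and 632 and 662 CPM with the inhibitor, most of it from *Irf8*, which B cells share. *Siglech*, the defining marker, had 0 and 0 counts with DMSO and 6 and 2 counts with the inhibitor. It was listed at 0 in the replicate 1 pair, so that this cell type's defining marker was at or near 0 in each library. *Cox6a2* fell from 15.6 and 15.7 CPM to 1.41 and 1.42 CPM, while *Tcf4*, a factor of both plasmacytoid dendritic cells and B cells, rose from 74.3 and 69.0 CPM to 155 and 137 CPM. *Runx2* and *Pacsin1* had log2 fold changes of 0.65 and 0.48. *Ccr9*, with 9 and 7 counts with DMSO and 24 and 15 with the inhibitor, was not called. Its DMSO libraries alone did not meet the filter on low counts, so its fold change is not given.

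T cell lists had more genes lower than higher in the count table. Of the 8 CD4 T cell markers present and tested, 7 were lower with the inhibitor and 0 higher, with a median log2 fold change of -1.23. Their sum was 1767 and 1799 CPM with DMSO and 946 and 1069 CPM with the inhibitor, and the gene with the highest mean CPM over the 4 libraries was *Cd5* at 426 and 439 against 154 and 200 CPM, though with the inhibitor *Cd4* was above it. *Cd3g*, *Lck* and *Cd2* fell, with log2 fold changes of -1.56, -1.20 and -1.26, whereas *Cd4* did not pass the test, at 275 and 276 CPM against 267 and 283 CPM. The list summed in replicate 1 to 1265 and 1127 FPKM. Of 10 markers of follicular helper T cells, the partners of germinal centre B cells, 2 were higher and 5 lower, with a median of -0.22 and a sum of 468 and 467 CPM against 402 and 431 CPM. Under the alternatives its median ran from -0.48 (without MAPK13-inhibitors replicate 3) to -0.10 (library totals). Without DMSO replicate 2 or DMSO replicate 3, 1 was higher. Its most abundant gene *Cxcr5*, which B cells share, rose from 127 and 119 CPM to 157 and 162 CPM. *Maf*, *Pdcd1* and *Sh2d1a* fell, with log2 fold changes of -2.28, -2.14 and -1.65. Replicate 1 went the other way for this list, with 8 of 10 genes higher with the inhibitor and a sum of 207 and 274 FPKM. Of 7 markers of CD8 T and NK cells 5 were tested, 3 were lower and 0 higher, and the sum went from 34.9 and 36.2 CPM to 10.5 and 14.3 CPM, led by *Nkg7* with DMSO (21.5 and 22.8 CPM) and by *Cd8b1* with the inhibitor (4.73 and 6.55 CPM). *Nkg7*, *Cd8a* and *Cd8b1* had log2 fold changes of -2.64, -1.41 and -0.60, and that of *Eomes*, -0.44, did not pass. *Klrd1*, with 8 and 8 counts with DMSO and 18 and 25 with the inhibitor, was not called. It passed the filter on low counts through the inhibitor group alone, so its fold change is not given. This list was higher with the inhibitor in replicate 1, from 17.3 to 124 FPKM.

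Myeloid and erythroid markers were low, and several did not pass the filter on low counts. Of 6 markers of conventional dendritic cells 4 were tested and all 4 were higher, and the sum went from 19.2 and 19.5 CPM to 58.8 and 49.2 CPM, led by *Zbtb46*, with *Cd209a* at 0. The log2 fold changes were 1.45 for *Zbtb46*, 1.67 for *Flt3* and 1.21 for *Itgax*. *Xcr1* had 0 and 4 counts with DMSO and 27 and 16 counts with the inhibitor, so it passed the filter through the inhibitor group alone. Its fold change is therefore not given. With at least 10 counts in every library, a filter *Xcr1* did not pass, 3 were higher. Of 10 macrophage markers 7 were tested, 6 were higher and 0 lower, and the sum went from 13.7 and 12.0 CPM to 43.1 and 35.6 CPM, led by *Cd68*. Among these 6, *C1qb* passed the filter through the inhibitor group alone, with 2 and 0 counts with DMSO and 14 and 12 counts with the inhibitor. *Cd68*, *Lyz2* and *Adgre1* had log2 fold changes of 1.44, 2.81 and 2.50. Of 7 erythroid markers 6 were tested, 5 were higher and 0 lower, and the sum went from 7.83 and 7.43 CPM to 89.7 and 64.2 CPM, with *Hbb-bs* the highest by its mean over the 4 libraries. *Hbb-bs*, *Hbb-bt*, *Hba-a1*, *Hba-a2* and *Alas2* had log2 fold changes of 3.80, 3.48, 4.15, 3.98 and 1.48, and *Klf1* at 0.25 did not pass. Of 6 neutrophil markers 1 was tested, *Mpo*, which was higher, and the sum stayed under 1 CPM in each library, with *S100a8*, *S100a9*, *Elane* and *Retnlg* at 3 counts or fewer. Here *Mpo* passed the filter through the inhibitor group alone, with 2 and 2 counts with DMSO and 17 and 16 with the inhibitor. Its fold change is therefore not given. With DESeq2 *Mpo* was not called, nor with at least 10 counts in every library, a filter it did not pass. Of 8 stromal and epithelial markers 4 were tested, 1 was higher and 0 lower, and the sum went from 51.9 and 48.2 CPM to 87.0 and 82.1 CPM, led by *Pecam1*, with *Col3a1* at 0 counts. *Pecam1* rose by 0.93 on the log2 scale, and *Col1a1*, *Epcam* and *Krt18*, at 0.43, -0.16 and -0.38, did not pass. The part of these cells in the members' values was not tested.

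The genes around the members were described by lists. None of 13 antibody chain genes, such as *Ighm*, *Igha* and *Igkc*, was found by symbol in the tables, so antibody transcripts were not analysed here. Of 15 further genes of the plasma cell programme, all were tested, 4 were higher and 7 lower, with a median log2 fold change of -0.23. Left-out libraries moved this median from -0.40 (without MAPK13-inhibitors replicate 2) to -0.09 (without replicate 3). With upper-quartile scaling, with library totals alone or with at least 10 counts required in every library, 7 were higher and 7 lower. *Xbp1*, the factor that expands the secretory apparatus, fell from 99.2 and 103 CPM to 41.7 and 41.8 CPM, a log2 fold change of -1.28 (SE 0.0664). *Irf4*, a factor of plasma cells that activated T cells also use, was the most abundant and fell from 869 and 874 CPM to 528 and 580 CPM. *Ell2*, an elongation factor that favours secreted antibody transcripts, fell by 1.11 on the log2 scale, and *Tent5c*, a poly(A) polymerase of plasma cells, rose by 1.17. *Prdm1*, which encodes Blimp-1 and is named after its values were seen, was at 27.7 ± 0.989 CPM against 32.2 ± 2.15 CPM (SD, n = 2 each) and did not pass (adjusted p = 0.0526 by edgeR). In the settings named above where 7 were higher, *Prdm1* was among these. While *Jchain* and *Sdc1* were higher, *Xbp1* and *Irf4* were therefore lower in the same libraries. Within the replicate 1 pair, 11 of the 15 genes were higher with the inhibitor and 4 lower. There *Xbp1* at 39.0 and 34.5 FPKM and *Irf4* at 287 and 176 FPKM were again lower. *Tent5c* at 11.5 and 31.1 FPKM was again higher, whereas *Ell2* went the other way, at 15.7 and 37.9 FPKM.

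Of 16 genes of the germinal centre B cell programme 14 were tested, 6 were higher and 3 lower, with a median log2 fold change of 0.09, which ran under the alternatives from -0.01 (without MAPK13-inhibitors replicate 3) to 0.24 (at least 10 counts in every library). *Cxcr4*, the receptor that places cells in the dark zone, rose from 75.5 and 67.2 CPM to 184 and 174 CPM, a log2 fold change of 1.33 (SE 0.0717). *Gna13*, the G protein that carries the signal of *S1pr2*, was the most abundant and rose from 449 and 417 CPM to 692 and 621 CPM. *Arhgef1*, which acts downstream of it, fell from 364 and 372 CPM to 213 and 216 CPM. *Gcsam* and *Rgs13* had at most 3 counts in every library. In the replicate 1 pair 10 of the 16 genes were higher with the inhibitor and 4 lower. The sum there went from 255 to 396 FPKM.

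Of 13 genes of the BAFF and APRIL axis, *Tnfrsf13b* and *Tnfrsf17* included, 11 were tested, 3 were higher and 5 lower, with a median of -0.05, which ran under the alternatives from -0.16 (without MAPK13-inhibitors replicate 3) to 0.07 (library totals). Without DMSO replicate 2, without DMSO replicate 3, and with upper-quartile scaling or library totals, 3 were lower, and with library totals 5 were higher. The 3 genes of the list with the smallest p-values all fell. *Nfkb2*, an NF-κB subunit, went from 730 and 748 CPM to 298 and 348 CPM, its partner *Relb* from 80.9 and 87.7 CPM to 28.6 and 32.7 CPM, and the kinase gene *Map3k14* from 71.5 and 70.8 CPM to 35.5 and 37.2 CPM. Of these 3 genes only *Nfkb2* went the other way in replicate 1, at 153 and 274 FPKM. There *Relb* at 53.3 and 51.6 FPKM and *Map3k14* at 18.6 and 16.5 FPKM were again lower. Of the whole list, 7 genes were higher and 5 lower in replicate 1, with a sum of 331 and 455 FPKM. In the count table the sum fell from 1541 and 1555 CPM to 1057 and 1091 CPM. The ligand gene *Tnfsf13b* (BAFF), named after its values were seen, rose from 0.582 and 0.588 CPM to 4.34 and 4.07 CPM. The third receptor, *Tnfrsf13c* (BAFF receptor), also named so, was at 116 and 109 CPM against 101 and 117 CPM, with overlap.

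All 13 genes of the sphingosine 1-phosphate axis were tested, *S1pr2* included, and 5 were higher and 4 lower, with a median of 0.08. The median was 0.20 with library totals and -0.01 without MAPK13-inhibitors replicate 2. With upper-quartile scaling, library totals, at least 10 counts in every library or DESeq2, and without DMSO replicate 2, DMSO replicate 3 or MAPK13-inhibitors replicate 2, 2 were lower. The exporter *Spns2* rose from 7.72 and 7.43 CPM to 20.0 and 21.8 CPM, and the kinase *Sphk2* fell from 47.4 and 50.1 CPM to 25.2 and 24.3 CPM. *Gna13* and *Arhgef1*, which this list also holds, are given above. Replicate 1 had 11 of the 13 genes higher with the inhibitor and 2 lower, with a sum of 248 and 253 FPKM.

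Of the 3 octamer genes *Pou2af1* alone was called. Its partners *Pou2f2*, at 237 and 256 CPM against 231 and 247 CPM, and *Pou2f1*, at 92.1 and 92.1 CPM against 84.4 and 81.8 CPM, did not pass. Without MAPK13-inhibitors replicate 2, and likewise without replicate 3, *Pou2f1* was also called lower, so that 2 of the 3 were. Of the 4 syndecans 3 were tested, and *Sdc4* rose with *Sdc1*, from 135 and 121 CPM to 247 and 249 CPM, a log2 fold change of 0.96. *Sdc3* was at 34.4 and 36.8 CPM against 33.8 and 38.0 CPM, and *Sdc2* at 0 counts. Of the 6 Fc receptor-like genes 4 were tested, 1 was lower, *Fcrl5*, and 0 were higher. *Fcrl1*, *Fcrla* and *Fcrlb* had log2 fold changes of -0.28, 0.23 and 0.92 that did not pass. With library totals, with at least 10 counts in every library and without MAPK13-inhibitors replicate 2, 1 was higher and 1 lower. With the replicate block and without MAPK13-inhibitors replicate 3, 2 were lower and 0 higher.

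The non-member genes nearest to the median profile of the 7 members tested, by Euclidean distance over the 4 libraries of the count table, were *Strn* at 0.00815, *Stk24* at 0.0126, *Rab6a* at 0.0174, *Zfp869* at 0.0177 and *Sema4b* at 0.0186. The members themselves were farther from it, from 0.0520 for *Tnfrsf13b* to 1.13 for *Pou2af1*. Among the members *Tnfrsf13b* was thus the nearest. The median is made from the members' own values, and in DMSO replicate 3 and MAPK13-inhibitors replicate 3 it is that of *Tnfrsf13b*. This nearness is therefore built in. The members went both ways, so the median is not a profile that they share.

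The 7 members other than *Mzb1* lie apart in the genome. In GENCODE release 21 on GRCm38, *Jchain* is at chr5:88519809-88527891 on the minus strand, *Sdc1* at chr12:8771323-8793715 on the plus strand, *Pou2af1* at chr9:51213708-51240080 on the plus strand and *S1pr2* at chr9:20962361-20976781 on the minus strand. *Tnfrsf13b* is at chr11:61126755-61149372, *Tnfrsf17* at chr16:11313812-11320074 and *Fcrl5* at chr3:87435773-87500678, all on the plus strand. The exons of these 7 overlap those of no other annotated gene.

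The 250 bases before the transcript start were taken from RefSeq (GRCm38.p6) for these 7 members and searched on both strands for 4 motifs. The octamer ATTTGCAT, which *Pou2af1* acts through, was in 0 of the 7 and in 1.61% of 27025 promoters of the same length. The E-box CACGTG was in 0 of the 7 and in 6.05% of all. The TATA motif TATAAA was in those of *Fcrl5* and *Tnfrsf17* and in 13.0% of all. The GC box GGGCGG was in those of *Sdc1* and *Tnfrsf17* and in 32.9% of all. The GC content was 66% for *Sdc1* and 42% for *Jchain*, against a median of 52% for all. These promoters are printed for *Sdc1* and *Jchain*, the members with the largest fitted rises, to show that they differ in composition. They are given on the strand of the gene and upstream of its first exon in GENCODE too, at chr12:8771146-8771322 (plus strand) and chr5:88527898-88528147 (minus strand), with GC boxes in capitals. Of the 3 GC boxes of *Sdc1*, 2 lie in the stretch shown, and that of *Jchain* holds none of the 4 motifs.
Sdc1: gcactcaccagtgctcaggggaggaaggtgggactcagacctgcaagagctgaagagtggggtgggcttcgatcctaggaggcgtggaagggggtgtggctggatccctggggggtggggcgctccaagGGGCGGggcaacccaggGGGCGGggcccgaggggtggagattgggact
Jchain: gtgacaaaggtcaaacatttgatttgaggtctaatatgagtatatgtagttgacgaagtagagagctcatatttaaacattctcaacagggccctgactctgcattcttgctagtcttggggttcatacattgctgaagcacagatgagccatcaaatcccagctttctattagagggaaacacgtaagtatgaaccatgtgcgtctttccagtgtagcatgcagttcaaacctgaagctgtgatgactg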

How the data were processed

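Replicates 2 and 3 of each group were deposited by the authors as raw counts per gene. The submitters' processing notes name fastp 0.21.0, HISAT2 2.1.0, StringTie 2.1.5 and DESeq2 1.30.1 for them, on mm10. How reads were assigned to genes is not given in the sources used here. For the replicate 1 pair (FastQC, HISAT2, mm10) the authors deposited normalized values, taken to be FPKM from their values, and log2 ratios of these were computed here with a pseudocount of 1. Counts entered edgeR 4.0.16 (R 4.3.3): filterByExpr (minimum count 10, minimum total 15), TMM scaling, the quasi-likelihood test of 2 libraries against 2 without covariate, and Benjamini-Hochberg adjustment over 16269 genes. The script was tested on simulated data. The 2 libraries of a group differed beyond sampling noise (mean chi-square per gene 3.07 and 9.80). CPM per kb uses exon lengths from GENCODE release 21.

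The members and lists were chosen with earlier results of these data known. Named are the members, all genes of lists with at most 6 tested, and otherwise the most abundant gene and the 3 with the smallest p-values, and the 5 non-member genes nearest to the members' median profile by log2(CPM + 0.5). *Camlg* was matched to *Caml* as a synonym. Alternatives were RLE, upper-quartile and library-total scaling, other filters and thresholds, other pseudocounts (0.1 and 0.01), a replicate block, DESeq2 1.42.0 and each library left out. A few genes of the lists are not reported here.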

Additional observations from a re-analysis of the deposited data

Results flagged for a closer look

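In 3 members every library of the count table moved one way and the replicate 1 pair the other, and this difference between the library batches was not tested. *Mzb1* had log2 ratios of 0.36 and 0.56 in the pairs numbered 2 and 3 and of -1.05 in the replicate 1 pair. *Tnfrsf13b* had log2 ratios of 0.39 and 0.26 against -0.17. *S1pr2* had log2 ratios of -0.33 and -0.18 against 0.63. The replicate 1 pair is 1 library per group, made with another kit and given in another unit, so the batch and these differences cannot be told apart.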

How the results depend on the processing

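For *Jchain*, *Mzb1*, *Sdc1*, *Tnfrsf13b*, *Pou2af1* and *Fcrl5* the direction and the call held in all 11 alternative settings of the fit, and no member changed direction. The log2 fold change of *S1pr2* (adjusted p = 0.0456 by edgeR) was no longer called with RLE (-0.25, adjusted p = 0.0554), upper-quartile normalization (-0.18), library totals alone (-0.14), no filter (-0.26), at least 10 counts in every library (-0.22) or DESeq2 (-0.25), nor without DMSO replicate 2, DMSO replicate 3 or MAPK13-inhibitors replicate 2. Leaving out 1 library gave -0.32 to -0.21, in fits where the lone library of a group is assumed to vary like the other group, and the cause was not tested. With an absolute log2 fold change over 1 also required, the calls went from 10374 to 3799 genes (2113 higher, 1686 lower) and from 7 to 2 members (2 higher, 0 lower). Library totals alone moved the median log2 fold change of all genes by 0.13. With the replicate number as a block 10645 genes and 7 members were called. No label pairs the same-numbered samples beyond the number. Their deviations had a correlation of 0.0050 across 16269 genes, which cannot show whether they shared a culture or an animal. Of the other values under alternatives, which concern lists and the replicate 1 pair, 673 stayed within the margin and 105 moved. The margin was 1.5 times for a count of genes and, for a median, the SD of the medians of the pairs numbered 2 and 3, while any change in a value of the replicate 1 pair was taken as moved. It is wide for medians near 0, as 10 of 186 list medians changed sign and 9 of these 10 were within it. Depth limits *Tnfrsf17*, at or under 2 counts in each library, and to a lesser degree *Jchain*, at 41 counts in its lowest library.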
